A study of Mus musculus with 11 samples.

Results

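The 8 genes described here are Hmgcs1, Idi1, Fdps, Fdft1, Sqle, Cyp51, Insig1 and Stard4, targets of the transcription factor SREBP2. All but Insig1, a regulator of SREBP, and Stard4, a carrier of cholesterol, encode enzymes of sterol synthesis. The 8 were chosen by name, with earlier results of these data known, and are 8 of the 12709 genes tested. Every probe set that the array annotation assigns to them was taken, 21 in all, of which 16 lay in the upper 60% of all probe sets by mean log2 signal and 5 were dimmer. Each gene was represented by its brightest probe set, and the other probe sets are described beside it.

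Total RNA of epididymal fat, a visceral fat depot, was hybridized to 11 Affymetrix mouse arrays, 1 array per sample, from male C57BL/6 mice aged 3 months that ate standard chow. The fat rescue mice (aP2B1-B1-/-, 3 arrays) lack the kinin B1 receptor in the body but regain it in fat. Their label names aP2, another name of Fabp4, whose promoter drives transgenes in fat cells. The knockout mice (B1-/-, 4 arrays) lack this receptor, which is the product of Bdkrb1, binds kinin peptides and signals through G proteins. The wild-type mice (B1+/+, 4 arrays) carry it. The labels call the arrays of a genotype biological replicates, but do not say whether an array holds 1 animal or a pool or how many transgenic lines were used. The p-values measure the spread between these arrays.

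Cells make cholesterol from acetyl-CoA by way of mevalonate, isoprenoid diphosphates, squalene and lanosterol. When sterols in the endoplasmic reticulum run low, the escort protein SCAP carries SREBP2 to the Golgi, where proteases release the part that enters the nucleus and turns on genes of this pathway; when sterols are plentiful, INSIG proteins hold the complex back. Fat cells store a large share of the body's free cholesterol, much of it in the lipid droplet membrane, and mostly take it up from lipoproteins rather than make it.

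Of the 8 genes, 4 had an entry in the RefSeq promoter table of the assembly GRCm38.p6 (Hmgcs1, Idi1, Insig1 and Cyp51), each with a window of 300 bases that runs from 250 bases before the gene's start to 50 after it. Both strands were searched for TCACNCCAC, a form of the sterol regulatory element that SREBP proteins bind, and for CCAAT, the motif of the factor NF-Y, which binds beside SREBP at many sterol genes; the letters of these motifs do not overlap in the windows. TCACNCCAC was found in Hmgcs1 and in 1.24% of the 32851 promoter windows of this length, and CCAAT in all 4 windows and in 37.4% of all windows. The promoter of Hmgcs1 (chr13:119690101-119690350, plus strand) is shown because it held the sterol motif, and that of Idi1 (chr13:8885356-8885605, plus strand), chosen after its values were seen, because its signal followed that of the other genes most closely. The 250 bases before the start are printed, with motif letters in capitals; ATTGG is CCAAT read from the other strand.
Hmgcs1: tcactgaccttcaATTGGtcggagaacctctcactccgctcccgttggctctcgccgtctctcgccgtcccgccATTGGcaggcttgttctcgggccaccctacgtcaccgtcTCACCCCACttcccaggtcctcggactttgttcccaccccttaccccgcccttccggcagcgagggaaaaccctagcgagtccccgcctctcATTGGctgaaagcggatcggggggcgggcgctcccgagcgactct
Idi1: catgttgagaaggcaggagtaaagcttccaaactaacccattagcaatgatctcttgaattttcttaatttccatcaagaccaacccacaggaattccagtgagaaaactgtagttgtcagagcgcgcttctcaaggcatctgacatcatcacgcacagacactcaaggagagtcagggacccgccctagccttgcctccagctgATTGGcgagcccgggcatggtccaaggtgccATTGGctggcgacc
In Hmgcs1 the sterol motif TCACCCCAC spans positions -137 to -129 from the start. A match describes the letters only, and a window with no match says only that these letters are not in it.

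The arrays had been scaled to a trimmed mean signal of 200 each, and their medians were 45.6 to 46.6 in fat rescue, 46.5 to 48.8 in knockout and 41.3 to 45.1 in wild type. The actin control signal at the 3′ end over that at the 5′ end, a sign of RNA integrity and labelling, was 1.47 to 1.56 in fat rescue, 1.53 to 1.69 in knockout and 1.65 to 1.83 in wild type. The same ratio of the Gapdh control was 0.918 to 0.950 in fat rescue, 0.865 to 1.001 in knockout and 0.918 to 1.029 in wild type. The genotypes overlapped in the Gapdh ratio. Wild type thus lay below both other genotypes in array median, and above fat rescue with no overlap in the actin ratio; the part of either in the differences of the 8 genes from wild type was not tested, beyond the centring on array medians. Bdkrb1 had a signal of 73.4, 57.8 and 60.4 in fat rescue, 4.8, 29.4, 6.9 and 29.7 in knockout, and 5.5, 32.2, 3.7 and 8.9 in wild type. The fat rescue arrays stood above all others, whereas knockout and wild type overlapped near the bottom of the signal range, so the probe set does not check the knockout label. The first principal component of all genes (27.3% of the variance) set rescue array 1 (-34.1) and wild-type array 1 (-45.4) apart from the other arrays (-15.6 to 26.5). The tissue label was checked against 10 measured markers of fat cells, whose summed signal was 90927 to 108867 in fat rescue, 83882 to 113022 in knockout and 92172 to 121187 in wild type, with Fabp4, Adipoq and Retn the leading ones.

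No genotype difference of the 8 genes passed the test. In limma's moderated test with Benjamini-Hochberg adjustment over all 12709 genes, 0 of 8 passed an adjusted p of 0.05 in fat rescue against knockout, where 0% of all genes passed. In fat rescue against wild type the count was also 0 of 8, with 0.0157% of all genes, and in knockout against wild type 0 of 8, with 0.0393%. The moderated F test over the 3 genotypes called 0 of 8, against 0.0393% of all genes, and 0 of 8 at an unadjusted p under 0.05, against 6.41% of all genes. The adjusted p of the 8 genes was 0.998 throughout in fat rescue against knockout, ran from 0.595 to 0.977 in fat rescue against wild type, and from 0.683 to 0.983 in knockout against wild type.

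At an unadjusted p under 0.05 the counts were 0 of 8 in fat rescue against knockout (3.81% of all genes), 1 of 8 in fat rescue against wild type (8.09%) and 1 of 8 in knockout against wild type (7.3%); the gene was Stard4 both times. In none of the 8 genes were the arrays of a pair of genotypes fully separated: the count was 0 of 8 in fat rescue against knockout, where 4.93% of all genes were separated, 0 of 8 in fat rescue against wild type (9.24%) and 0 of 8 in knockout against wild type (3.84%). The signs were mixed as well. Fat rescue had 3 genes higher and 5 lower than knockout, with a median log2 difference of -0.12 against 0.01 for all genes. It had 2 genes higher and 6 lower than wild type, with a median of -0.05 against 0.03. Knockout had 5 higher and 3 lower than wild type, with a median of 0.07 against 0.02. With arrays centred on their medians, knockout had 3 higher and 5 lower than wild type. The median was then -0.08, against -0.13 for all genes. Fat rescue had 2 higher and 6 lower than wild type after centring, with a median of -0.15 against -0.07. Against knockout it had 3 higher and 5 lower, with a median of -0.07 against 0.06. The 3 comparisons share arrays, so their values are not independent. In whole tissue, fewer cells of a type and less RNA per cell cannot be told apart.

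**Figure D1:**
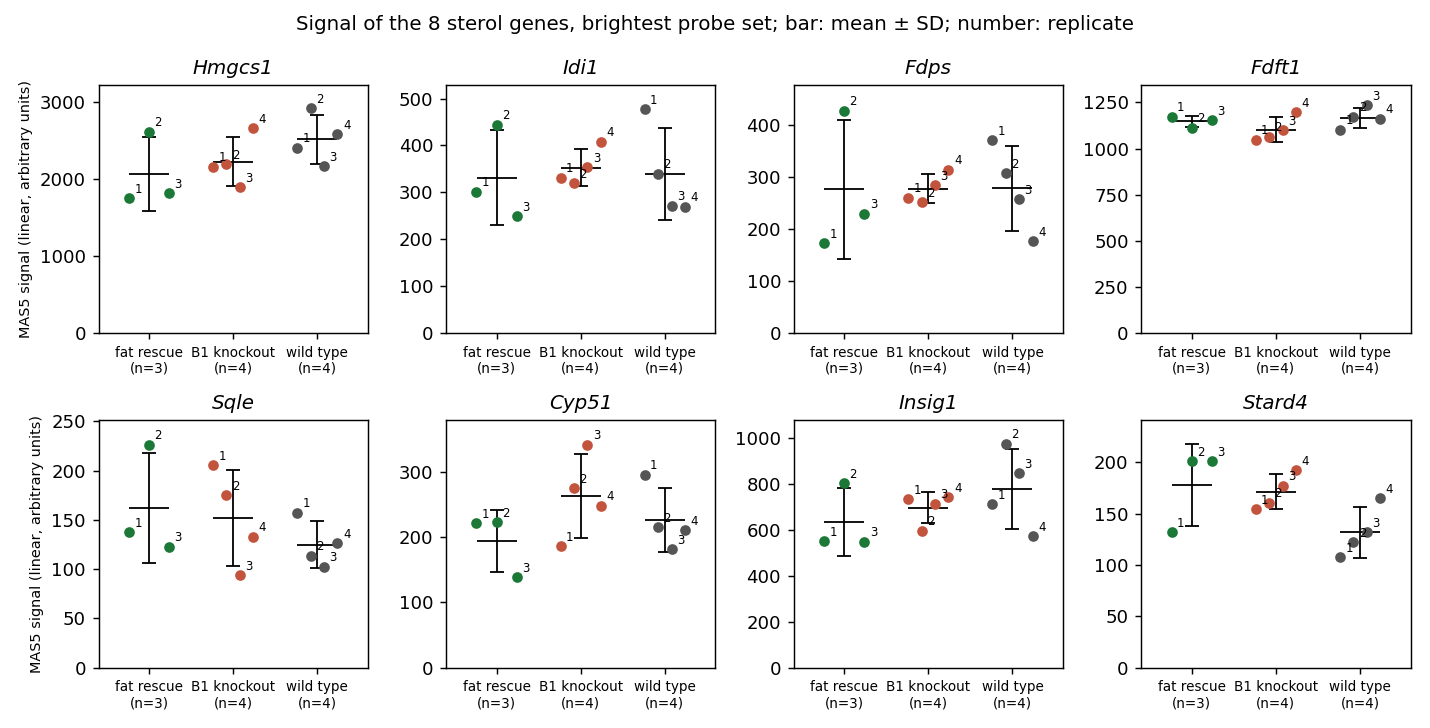
Signal of each of the 8 genes (linear MAS5 signal in arbitrary units, 1 panel per gene) in every array of fat rescue (3 arrays), knockout (4) and wild type (4); points are arrays with their replicate number, bars are the mean ± SD. The genotypes overlapped in every panel, and Stard4 was the gene whose wild-type arrays sat lowest as a group.

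The pathway begins with Hmgcs1, the cytosolic HMG-CoA synthase, which joins acetyl-CoA and acetoacetyl-CoA on the way to mevalonate. Its brightest probe set, 1433445_x_at, had a signal of 1750.2, 2612.8 and 1818.1 in fat rescue, 2160.1, 2193.7, 1894.0 and 2655.9 in knockout, and 2402.9, 2914.5, 2161.5 and 2582.8 in wild type. Rescue arrays 1 and 3 were lower than every knockout and wild-type array, but rescue array 2 lay among them. The log2 difference of fat rescue minus wild type was -0.30 ± 0.15 (SE; 95% interval -0.63 to 0.03; unadjusted p = 0.0687 and adjusted p = 0.637 in limma). Fat rescue minus knockout was -0.13 ± 0.15 and knockout minus wild type was -0.18 ± 0.14 (SE), and both 95% intervals included 0. Of the other 4 probe sets of Hmgcs1, the 3 bright ones also averaged lower than wild type, by log2 differences of -0.31, -0.28 and -0.21 in fat rescue and -0.08, -0.27 and -0.15 in knockout. The dim one, 1441536_at, ran the other way. Its signal was 17.6, 22.7 and 24.6 in fat rescue, 15.5, 21.9, 38.4 and 22.7 in knockout, and 12.4, 14.8, 17.4 and 7.6 in wild type, below the array median in all 11 arrays. Fat rescue and wild type did not overlap at this probe set, and its adjusted p was 0.811.

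Idi1 encodes isopentenyl-diphosphate isomerase, which interconverts the isoprenoid building blocks. Its signal was 301.3, 443.9 and 249.0 in fat rescue, 331.7, 319.2, 353.1 and 408.1 in knockout, and 477.6, 339.5, 272.0 and 269.3 in wild type. The knockout arrays lay close together, and the arrays of both other genotypes spread above and below them. The log2 difference was -0.13 ± 0.22 for fat rescue minus knockout, -0.04 ± 0.22 for fat rescue minus wild type and 0.09 ± 0.20 for knockout minus wild type. A second probe set, 1423804_a_at, gave -0.45, -0.22 and 0.23 for the same comparisons, with the same signs.

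Fdps, farnesyl diphosphate synthase, makes the farnesyl units that lead to sterols and to prenylated proteins. Its signal was 173.0, 427.0 and 229.1 in fat rescue, 260.0, 251.3, 284.0 and 313.3 in knockout, and 370.5, 307.4, 256.5 and 176.4 in wild type. Fat rescue held both the highest and the lowest array, a 2.47-fold range, while the means of 276.4 ± 133.4 in fat rescue, 277.1 ± 27.8 in knockout and 277.7 ± 82.1 in wild type (SD, n = 3, 4 and 4) were almost equal. The log2 differences were -0.11 ± 0.28, -0.06 ± 0.28 and 0.04 ± 0.26 in the same order. The dim probe set 1438150_at ran from 0.8 to 46.3 in fat rescue, 0.6 to 14.3 in knockout and 0.7 to 14.2 in wild type, below the array median in all arrays. Its log2 differences were 2.04 ± 1.51, 1.42 ± 1.51 and -0.62 ± 1.40, opposite in sign to those of the bright probe set and with wide errors. The genotype accounted for 1.19% of the variance of Fdps, against a median of 18.8% over all genes.

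Fdft1, squalene synthase, commits farnesyl diphosphate to sterols. Its signal was 1174.0, 1112.7 and 1154.2 in fat rescue, 1048.6, 1064.8, 1101.3 and 1197.9 in knockout, and 1102.5, 1173.4, 1235.6 and 1161.5 in wild type. All arrays lay within a 1.18-fold range, and 1.53% of genes had a smaller SD within genotypes than the 0.07 (log2) of Fdft1. The 95% intervals of its log2 differences were therefore the narrowest of the 8 genes: -0.11 to 0.23 for fat rescue minus knockout, -0.19 to 0.14 for fat rescue minus wild type and -0.24 to 0.07 for knockout minus wild type. The second bright probe set, 1448130_at, did not follow the first over the arrays (Pearson r = 0.00). Its log2 differences of 0.02, 0.07 and 0.05 were also small, beside 0.06, -0.03 and -0.08 at the first. The signs of both differences from wild type were thus opposite at these probe sets. The dim probe sets 1438918_at (0.67 ± 0.92, 0.33 ± 0.92 and -0.34 ± 0.85) and 1438919_x_at (-0.42 ± 0.99, -0.04 ± 0.99 and 0.37 ± 0.92) had errors above the size of their differences, with signals of 1.3 to 28.6 over all arrays.

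Sqle, squalene epoxidase, is the first oxygen-requiring step and a second control point of the pathway. Its only probe set had a signal of 137.6, 226.3 and 122.8 in fat rescue, 205.6, 175.1, 93.8 and 133.0 in knockout, and 157.4, 113.7, 102.4 and 126.3 in wild type. Rescue array 2 and knockout arrays 1 and 2 exceeded every wild-type array, and the remaining arrays were mixed. The log2 difference was 0.34 ± 0.27 for fat rescue minus wild type, 0.24 ± 0.25 for knockout minus wild type and 0.10 ± 0.27 for fat rescue minus knockout, and none passed (adjusted p = 0.774, 0.842 and 0.998 in limma).

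Cyp51, lanosterol demethylase, acts after the sterol ring has closed. Its signal was 221.1, 222.6 and 138.9 in fat rescue, 186.1, 275.0, 341.7 and 248.0 in knockout, and 295.7, 215.4, 181.4 and 210.5 in wild type. Knockout arrays 2, 3 and 4 were above all 3 rescue arrays, and knockout array 1 was below 2 of them. Fat rescue minus knockout was -0.44 ± 0.23 (95% interval -0.93 to 0.06; unadjusted p = 0.0791 and adjusted p = 0.998 in limma), the largest difference between these genotypes among the 8 genes; without rescue array 3 it was -0.21. Fat rescue minus wild type was -0.23 ± 0.23 and knockout minus wild type 0.21 ± 0.21. The probe set 1422533_at gave -0.35, -0.08 and 0.27 with the same signs. The dimmest, 1422534_at, was below the array median in all arrays, with a signal of 2.6, 23.7 and 2.0 in fat rescue, 23.1, 24.6, 27.2 and 7.1 in knockout, and 15.7, 18.5, 29.2 and 17.7 in wild type. Rescue arrays 1 and 3 were almost dark there and rescue array 2 was not, and the log2 difference of fat rescue minus wild type of -1.98 ± 0.81 had an unadjusted p of 0.0277 and an adjusted p of 0.732 in limma over all probe sets.

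Insig1 encodes a membrane protein that retains SCAP and SREBP in the endoplasmic reticulum when sterols are plentiful, and it is itself a target of SREBP. Its signal was 548.9, 801.4 and 548.1 in fat rescue, 731.0, 596.1, 713.3 and 740.6 in knockout, and 710.3, 973.5, 845.6 and 570.9 in wild type. Rescue arrays 1 and 3 were below every other array, while rescue array 2 was above all knockout arrays. The log2 difference was -0.29 ± 0.18 for fat rescue minus wild type (unadjusted p = 0.130, adjusted p = 0.697 in limma), -0.15 ± 0.18 for fat rescue minus knockout and -0.13 ± 0.17 for knockout minus wild type.

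Stard4 encodes a soluble protein that carries cholesterol between membranes. Its signal was 132.0, 201.1 and 201.1 in fat rescue, 154.4, 160.6, 177.2 and 192.3 in knockout, and 107.5, 122.1, 132.0 and 165.2 in wild type. Wild-type arrays 1, 2 and 3 were at or below every array of the other genotypes, and wild-type array 4 lay within the range of both. The log2 difference was 0.43 ± 0.18 for fat rescue minus wild type (95% interval 0.03 to 0.83; unadjusted p = 0.0382, adjusted p = 0.595 in limma) and 0.39 ± 0.17 for knockout minus wild type (0.02 to 0.76; unadjusted p = 0.0399, adjusted p = 0.683). Fat rescue minus knockout was 0.04 ± 0.18. The other 2 probe sets of Stard4 gave 0.26 and 0.38 for fat rescue minus wild type and 0.33 and 0.41 for knockout minus wild type, so all 3 had the same sign in both comparisons. The genotype accounted for 45.2% of the variance of Stard4, the highest share of the 8 genes, against a median of 18.8% over all genes. Its moderated F test gave an unadjusted p of 0.057 and an adjusted p of 0.776.

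**Figure D2:**
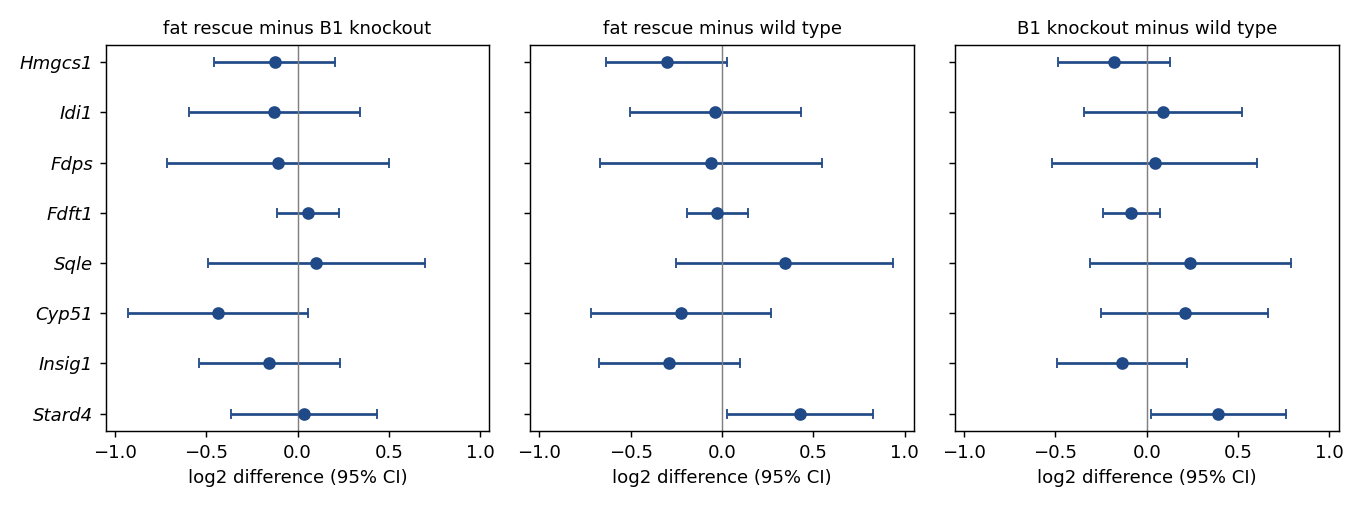
Log2 difference of each of the 8 genes (rows) with its 95% interval from limma, in 3 panels: fat rescue minus knockout, fat rescue minus wild type and knockout minus wild type. The intervals crossed 0 except for Stard4 against wild type in the last 2 panels, where they began at 0.03 and 0.02.

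Tested singly among 45037 probe sets with no filter on brightness, 0 of the 21 probe sets passed in fat rescue against knockout (0% of all probe sets), 0 of 21 in fat rescue against wild type (0.0155%) and 0 of 21 in knockout against wild type (0.0178%). At an unadjusted p under 0.05 in limma there were 1, 2 and 1 of 21 in these comparisons, against 4.13%, 6.68% and 6.53% of all probe sets. They were Cyp51 1422534_at in the first, the same set and Stard4 1429240_at in the second, and Stard4 1429240_at in the third.

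The spread between arrays of a genotype was as large as for other genes or larger in most of the 8. The SD within genotypes on the log2 scale was 0.44 in Fdps, 0.42 in Sqle, 0.35 in Cyp51 and 0.33 in Idi1, against a median of 0.22 over all genes; 84.6%, 82.8%, 75.3% and 73.5% of genes had a smaller one. Insig1 (0.27), Stard4 (0.25) and Hmgcs1 (0.23) were nearer the median, and Fdft1 (0.07) was far below it.

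Idi1 and Fdps shared part of that spread (Pearson r = 0.82 over the 11 arrays), whereas the median r over all 28 pairs of the genes was 0.13. Relative to each gene's own mean over the 11 arrays, the 8 genes averaged a log2 deviation of -0.22, 0.31 and -0.22 in fat rescue, 0.01, 0.02, 0.01 and 0.16 in knockout, and 0.14, 0.05, -0.13 and -0.14 in wild type. Rescue array 2 had the highest mean deviation and 6 of 8 genes above their own mean, while rescue arrays 1 and 3 had the lowest, with 1 and 2 of 8 above. The counts in knockout were 2, 3, 5 and 7 and those in wild type 6, 5, 2 and 3, so knockout array 4 and wild-type array 1 had as many or more genes above the mean, by smaller amounts. The mean deviations of single arrays thus spread the widest in fat rescue (-0.22 to 0.31). They ran from 0.01 to 0.16 in knockout and from -0.14 to 0.14 in wild type. Rescue array 1 also stood apart on the first principal component of all genes, but rescue array 3 did not. Over the 11 arrays all 8 endothelial markers ran against the mean of the 8 genes (r of -0.68 to -0.33, median -0.59), as did all 6 mesothelial markers (-0.51 to -0.25), while the 14 macrophage markers ran from -0.32 to 0.08. The mean deviation of the endothelial markers was 0.05, -0.12 and 0.44 in fat rescue, -0.12, 0.03, 0.03 and -0.35 in knockout and -0.12, 0.02, 0.03 and 0.10 in wild type. Their part in the spread of the 8 genes was not tested.

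**Figure D3:**
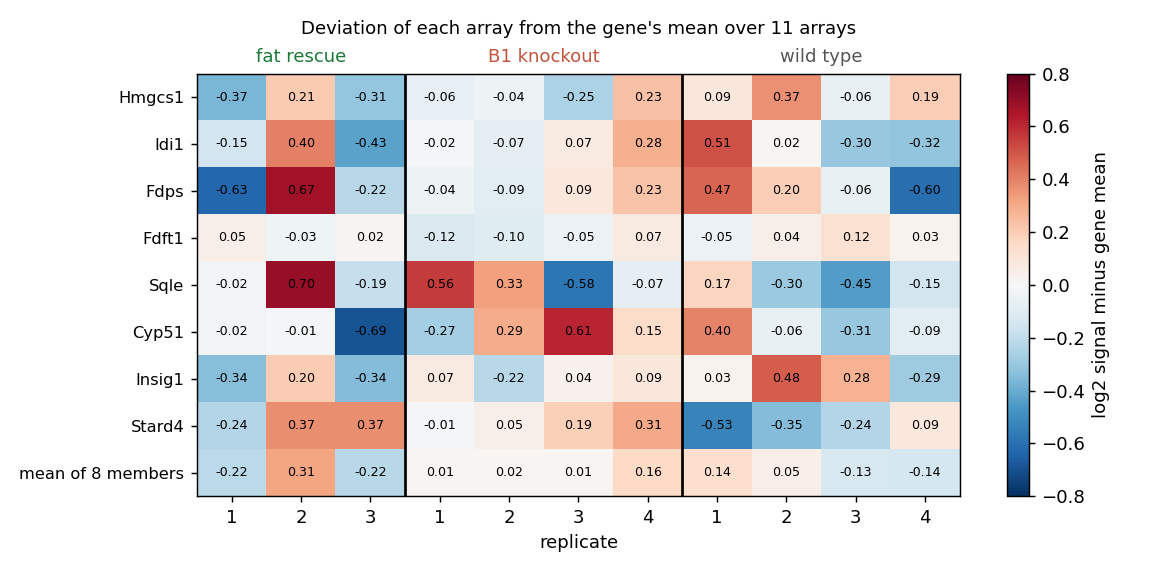
Log2 deviation of each array from the gene's mean over 11 arrays, for the 8 genes and their mean (bottom row), with columns ordered as fat rescue, knockout and wild type and coloured from blue (below the mean) to red (above). Rescue array 2 was above the mean in 6 of 8 genes and its mean deviation was 0.31, against -0.22 in rescue arrays 1 and 3.

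Among the 28 pairs of the 8 genes, 17 correlations over the 11 arrays were positive and 11 negative, with a median Pearson r of 0.13 and a range of -0.62 to 0.82. The strongest was that of Idi1 with Fdps (Pearson r = 0.82, permutation p = 0.00229, adjusted p = 0.0641 over the 28 pairs; Spearman's rho = 0.90, permutation p = 0.00038, adjusted p = 0.0106). With genotype means removed it was also 0.82. Without the 2 arrays farthest from the median of Idi1 it was 0.66, and without those farthest in Fdps 0.85. At an unadjusted permutation p under 0.05 there were 5 pairs by Pearson's r: besides this one, Fdps with Insig1 (0.68), Idi1 with Cyp51 (0.63), Fdft1 with Sqle (-0.62) and Hmgcs1 with Insig1 (0.61). None of the 28 passed the adjustment by Pearson's r and 1 did by Spearman's rho. The r of Hmgcs1 with Insig1 dropped to 0.28 without the 2 arrays farthest in Hmgcs1. With genotype means removed it was 0.50, and Spearman's rho over the 11 arrays was 0.63. Leaving out the extreme arrays also narrows the range of Hmgcs1, so the drop does not show on which arrays the relation rested.

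**Figure D4:**
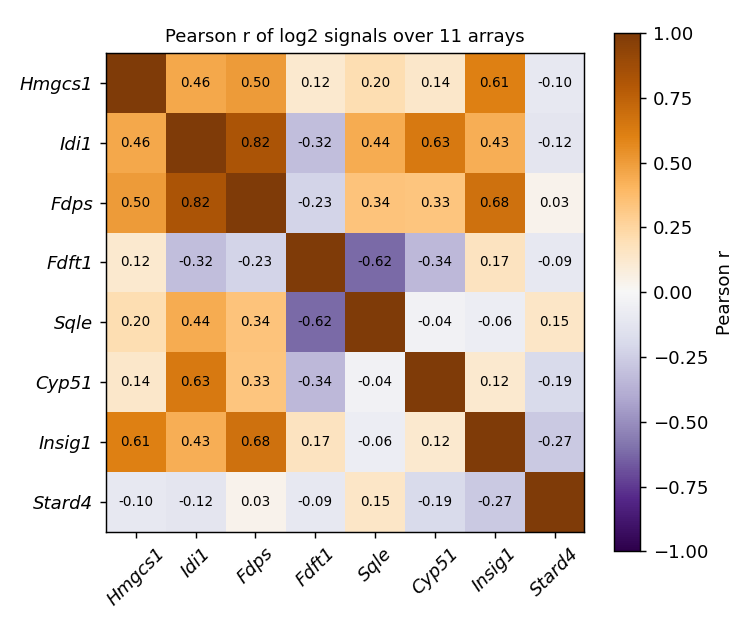
Pearson's r of log2 signals over the 11 arrays for each pair of the 8 genes, from purple (negative) to brown (positive). Idi1 and Fdps had the highest r, 0.82, and Fdft1 and Sqle the lowest, -0.62.

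The probe sets of a single gene gave a scale for these values. Over 12 pairs of bright probe sets of 1 gene, Pearson's r ran from 0.00 in Fdft1 to 0.93 in Hmgcs1, with a median of 0.76, and 9 of 12 passed an adjusted permutation p of 0.05. The r of Idi1 with Fdps thus lay above the median of probe sets that measure the same gene, and the remaining pairs of the 8 genes lay below it.

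Set against the mean of the other 7, Idi1 (r = 0.84) and Fdps (0.81) followed it most closely, and 99.9% of all genes had a lower r with the same mean in either case. Hmgcs1 had 0.51 (94.8% of genes lower), Insig1 0.41 (89.6%), Cyp51 0.24 (75.4%) and Sqle 0.24 (76.2%). Stard4 (-0.10) and Fdft1 (-0.37) did not follow the others. These correlations share the arrays and their scaling and are given as a description.

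The 10 genes outside the list whose signal was most like the mean of the 8, by Pearson's r over the 11 arrays, were Iqcc (0.94), Hspb11 (0.87), Nsdhl (0.86), Ap5z1 (0.85), Scd2 (0.85), Degs1 (0.84), Nos1 (0.84), Tmem59l (0.83), Dap (0.83) and Gm33409 (0.83). Nsdhl encodes a sterol dehydrogenase that removes methyl groups after the step of CYP51. Scd2 encodes a stearoyl-CoA desaturase, and Degs1 a desaturase of sphingolipid synthesis. With genotype means removed, the r of these 3 was 0.89, 0.93 and 0.94, and that of all 10 ran from 0.86 in Gm33409 to 0.95 in Iqcc. Tmem59l (mean signal 37.4), Gm33409 (40.7) and Nos1 (58.3) were dim, beside array medians of 41.3 to 48.8. Over 12701 genes the 5th and 95th percentiles of r were -0.54 and 0.52, and 18 genes exceeded 0.8.

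The other genes of the pathway gave the same count. Of 15 further sterol synthesis enzymes 12 were measured, and 0 passed in limma at an adjusted p of 0.05 in any comparison or in the F test; the others were not analysed here. Their median log2 difference was 0.04 for fat rescue minus knockout, -0.01 for fat rescue minus wild type and -0.03 for knockout minus wild type. An unadjusted p under 0.05 in limma was reached by 2, 0 and 1 of the 12, against 3.81%, 8.09% and 7.3% of all genes. Mvk, mevalonate kinase, had the smallest p of the F test, with a signal of 163.5 ± 54.1 in fat rescue, 113.2 ± 19.1 in knockout and 154.3 ± 22.9 in wild type (SD, n = 3, 4 and 4). Its log2 difference was 0.49 ± 0.22 for fat rescue minus knockout (adjusted p = 0.998 in limma) and -0.45 ± 0.20 for knockout minus wild type (adjusted p = 0.683). Tm7sf2, a sterol reductase, averaged 88.8 ± 44.9 in fat rescue, 132.8 ± 13.9 in knockout and 130.3 ± 36.3 in wild type, and the log2 difference of fat rescue minus knockout was -0.71 ± 0.31 (adjusted p = 0.998).

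Of the 6 regulators of SREBP, Srebf1, Srebf2, Scap, Mbtps1, Mbtps2 and Insig2, 0 passed in limma in any comparison. An unadjusted p under 0.05 was reached by 0 in fat rescue against knockout (3.81% of all genes). It was reached by 1 in fat rescue against wild type (8.09%) and 1 in knockout against wild type (7.3%). Srebf2, the gene of SREBP2 itself, averaged 273.1 ± 58.2 in fat rescue, 258.5 ± 59.3 in knockout and 285.9 ± 78.8 in wild type, with log2 differences of 0.09 ± 0.23 for fat rescue minus knockout, -0.04 ± 0.23 for fat rescue minus wild type and -0.13 ± 0.21 for knockout minus wild type. Srebf1, which encodes the SREBP of fatty acid synthesis, averaged 2510 ± 507 in fat rescue, 2463 ± 342 in knockout and 3208 ± 540 in wild type, and knockout minus wild type was -0.38 ± 0.15 (unadjusted p = 0.0297, adjusted p = 0.683). Scap, the escort of SREBP, averaged 465.4 ± 29.3 in fat rescue, 491.5 ± 35.9 in knockout and 542.5 ± 27.5 in wild type, and fat rescue minus wild type was -0.22 ± 0.09 (unadjusted p = 0.031, adjusted p = 0.581).

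Among genes of sterol uptake and transport 6 of 7 were measured and 0 passed in limma; the other was not analysed here. Their median log2 difference was 0.00 for fat rescue minus knockout, 0.14 for fat rescue minus wild type and 0.14 for knockout minus wild type. Npc2, which hands cholesterol on inside lysosomes, had the smallest p of the F test and averaged 7189.5 ± 249.9 in fat rescue, 7101 ± 998.6 in knockout and 8398 ± 734.6 in wild type. Its log2 difference was -0.22 ± 0.11 for fat rescue minus wild type (adjusted p = 0.637 in limma) and -0.25 ± 0.10 for knockout minus wild type (unadjusted p = 0.0320, adjusted p = 0.683). Lipa, the lysosomal acid lipase that frees cholesterol from lipoprotein esters, averaged 1237 ± 95.1 in fat rescue, 1177 ± 528 in knockout and 848.6 ± 59.2 in wild type, and fat rescue minus wild type was 0.54 ± 0.22 (adjusted p = 0.581). Stard3, which like Stard4 has a sterol-binding START domain, averaged 309.1 ± 56.5 in fat rescue, 316.3 ± 35.9 in knockout and 253.8 ± 49.5 in wild type. Of 7 genes of sterol export, esterification and LXR, 5 were measured (Nr1h2 and Soat1 were not analysed here) and 0 passed, with medians of 0.09, -0.01 and -0.12 in these comparisons; all 5 were lower in knockout than in wild type, down to -0.21 in Nr1h3, which encodes LXR alpha. At an unadjusted p under 0.05 there were 0, 1 and 2 of the 6 and 0, 1 and 0 of the 5 in the same order. The shares of all genes were 3.81%, 8.09% and 7.3%.

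The 9 genes of fatty acid synthesis, which SREBP1c drives, had larger median differences against wild type than the 8 sterol genes, and whether the lists differ was not tested. Their median log2 difference was -0.03 for fat rescue minus knockout, -0.58 for fat rescue minus wild type and -0.37 for knockout minus wild type. In these comparisons 6, 8 and 7 of 9 were lower, and 0 of 9 passed in limma. An unadjusted p under 0.05 was reached by 1, 0 and 1 of 9, against 3.81%, 8.09% and 7.3% of all genes. The mean deviation of these genes in fat rescue was -0.33, 0.62 and -0.90 in arrays 1, 2 and 3, so rescue array 2 was the high one here as for the sterol genes.

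Marker genes of the cell types in fat were read beside these values. All 14 macrophage markers were higher in fat rescue than in wild type and in knockout than in wild type, with median log2 differences of 0.42 and 0.28, and 0 of 14 passed an adjusted p of 0.05 in limma (6 and 1 at an unadjusted p under 0.05, against 8.09% and 7.3% of all genes). Knockout array 1 carried most of the second shift. Without it, a check chosen after seeing the data, 10 of 14 markers were higher and the median was 0.07. Their summed signal was 25523 to 30177 in fat rescue, 18836 to 38905 in knockout and 16992 to 24553 in wild type. The fat cell markers were lower than wild type in 9 of 10 genes in fat rescue and 10 of 10 in knockout, with medians of -0.12 and -0.22. None passed, and 0 and 3 of 10 had an unadjusted p under 0.05, against 8.09% and 7.3% of all genes. The part of these cells in the values of Stard4, which was also higher than wild type in both genotypes, and of Hmgcs1 and Insig1, which were lower, was not tested. Of 8 endothelial markers 8 were higher in fat rescue than in knockout (median 0.26), of 6 mesothelial markers 5 (median 0.25), and 0 of either list passed. An unadjusted p under 0.05 was reached by 1 of 8 and 2 of 6, against 3.81% of all genes. Against wild type in fat rescue 6 of 8 endothelial (median 0.12) and 5 of 6 mesothelial markers (median 0.45) were higher, and 0 passed; 0 of 8 and 4 of 6 had an unadjusted p under 0.05, against 8.09% of all genes. The part of these cells in the 8 genes was not tested. Of 7 markers of steroid-producing cells, which could come with the testis, 2 were measured, Star with a mean signal of 89.7 in fat rescue, 94.3 in knockout and 102.2 in wild type, and Cyp11a1 with 31.8, 22.9 and 27.0 in the same genotypes.

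**Figure D5:**
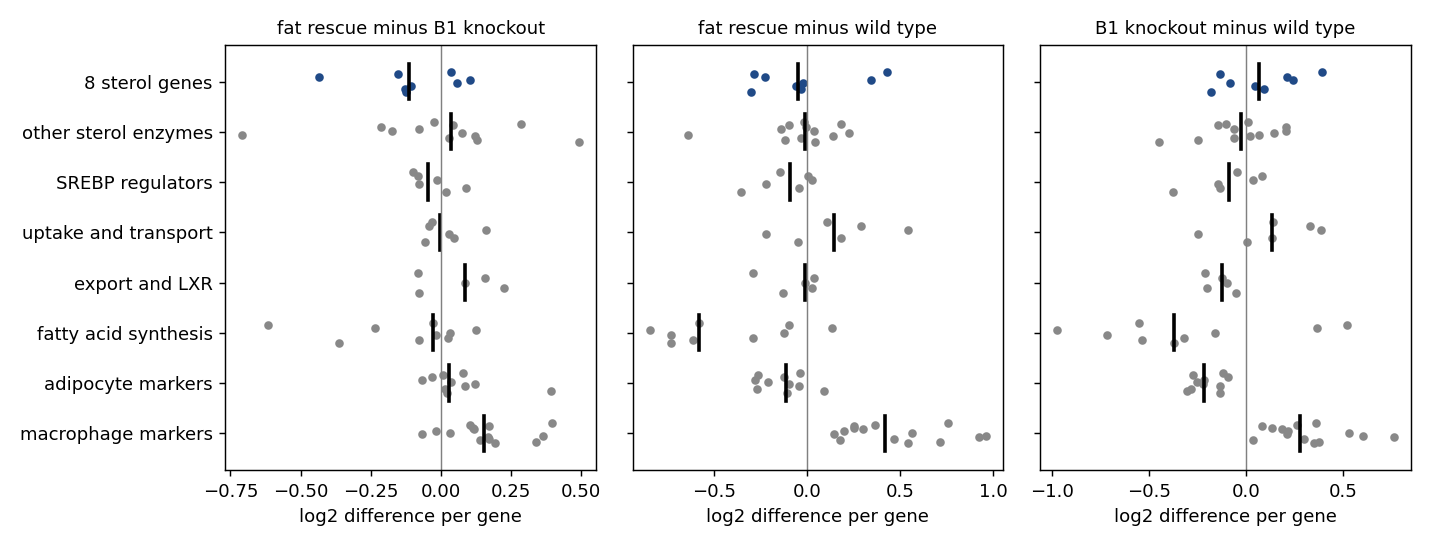
Log2 difference of each measured gene (point) in the 8 sterol genes and in 7 other lists, with the median of the list as a black bar, for fat rescue minus knockout, fat rescue minus wild type and knockout minus wild type; the horizontal scales differ between panels. The medians of the 8 sterol genes were -0.12, -0.05 and 0.07, while those of fatty acid synthesis were -0.03, -0.58 and -0.37 and those of the macrophage markers 0.15, 0.42 and 0.28.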

How the data were processed

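The authors deposited 1 table with a linear signal intensity for each of 45101 probe sets in 11 arrays; per the submitters' processing notes the values came from GCOS 1.3 and MAS5. The table holds no detection calls and no genome build is given in the sources used here. A single 0 was set to 0.1, the smallest positive signal, and log2 was taken with no further normalization.

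The 64 control probe sets were left out. Of the others 34945 had 1 gene symbol in the platform annotation, 932 several and 9160 none. The upper 60% by mean log2 signal were kept (27022), and the brightest probe set stood for each gene (12709 genes). All arrays entered 1 fit in limma 3.58.1 (R 4.3.3; eBayes with trend) with genotype as the factor; p-values are two-sided and Benjamini-Hochberg adjusted over all genes, with a threshold of 0.05. Every probe set was also tested singly. Correlations used 100000 permutations of the arrays. Of these steps, only the limma fit was run on simulated gene values. The number of arrays limits the precision, and signals of different probe sets are not compared.

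The labels number the replicates of each genotype and tie no number to a shared litter, day or batch. Correlations of the deviations of same-numbered arrays were -0.04 to 0.19 (fat rescue and knockout), -0.14 to 0.35 (fat rescue and wild type) and -0.14 to 0.23 (knockout and wild type). Those of replicate 1 were positive in every pair of genotypes (0.19, 0.35 and 0.14), and those of replicate 2 negative (-0.04, -0.14 and -0.14). Why was not tested. As the labels give no pairing, none was used, and the replicate number as a block was among the alternatives. No batch is given in the labels.

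The 8 genes and the gene lists were chosen with earlier results of these data known. Genes named are the 8, up to 5 of each sterol or SREBP list by the smallest p of the F test, up to 3 of each marker list by mean signal, and the 10 most like the mean of the 8. The alternatives were 2 other scalings of the arrays, an offset of 50, other filters (none, upper 40%), averaging the probe sets of a gene, eBayes robust or with no trend, array weights, only the genotypes compared, the replicate number as a block, each array left out, and both outlying arrays left out.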

Additional observations from a re-analysis of the deposited data

How the results depend on the processing

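Under each of the 23 alternatives per comparison (22 for the F test, 20 for single probe sets) 0 of the 8 genes and 0 of their 21 probe sets passed, and the lowest adjusted p of any of the 8 genes was 0.179 (Fdft1, knockout against wild type). Of 24 log2 differences 15 kept their sign throughout, among them those of Hmgcs1, Cyp51 and Insig1 in all comparisons and of Stard4 against wild type (0.32 to 0.63 in fat rescue, 0.24 to 0.51 in knockout). Those that turned were small in the main fit (-0.13 to 0.10), but not under every alternative. Fdps ran from -0.43 to 0.38 in fat rescue minus wild type and from -0.47 to 0.18 in fat rescue minus knockout. Centring on array medians, which moved the median of all genes to 0.06, -0.07 and -0.13 in fat rescue minus knockout, fat rescue minus wild type and knockout minus wild type, gave -0.058 for Idi1 and -0.10 for Fdps in knockout minus wild type. Averaging the probe sets of a gene gave -0.017 for Stard4 (fat rescue minus knockout) and 0.021 for Fdft1 (fat rescue minus wild type). Array weights gave 0.089 for Idi1 and 0.037 for Fdps in fat rescue minus wild type. Leaving out rescue array 1 and wild-type array 1 gave 0.18 for Fdps in fat rescue minus knockout, and 0.19 for Idi1 and 0.38 for Fdps in fat rescue minus wild type. The cause was not tested.

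Leaving out 1 array at a time moved fat rescue minus knockout to -0.36 to 0.057 in Idi1, -0.47 to 0.18 in Fdps, -0.16 to 0.28 in Sqle and -0.065 to 0.24 in Stard4. Fat rescue minus wild type ran from -0.27 to 0.15 in Idi1, -0.43 to 0.22 in Fdps and -0.053 to 0.0016 in Fdft1, and knockout minus wild type from -0.0076 to 0.27 in Idi1 and -0.16 to 0.20 in Fdps. The median of the 8 genes ran from -0.32 to 0.011 in fat rescue minus knockout and -0.31 to 0.021 in fat rescue minus wild type, and the lowest values, -0.32 and -0.31, were those without rescue array 2. In knockout minus wild type it ran from -0.05 to 0.23 without 1 array. Centring on array medians gave -0.081, against -0.13 for all genes. Differences that kept their sign also moved by over 1.5 times: Cyp51 in fat rescue minus knockout ran from -0.59 to -0.21 (lowest without knockout array 1, highest without rescue array 3), and Hmgcs1 and Insig1 in fat rescue minus wild type were -0.49 and -0.47 without rescue array 2.

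With the replicate number as a block, 0 of 8 genes passed and the medians were -0.11, -0.09 and 0.07; all genes called numbered 0, 2 and 8, against 0, 2 and 5 without it. Over the alternatives the counts of all genes ran from 0 to 0, 1 to 8 and 2 to 14. None of 32 sets of 4 arrays, knockout and wild type at each of 16 bright probe sets, held an outlying array. Fat rescue, with 3 arrays, was not part of this check. With 3 or 4 arrays a genotype, true differences of the sizes inside the 95% intervals are not excluded by these data. The intervals are not adjusted for the number of genes tested, and they do not give the smallest difference that could be detected. Dim probe sets carry little information.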
